A study of Saccharomyces cerevisiae with 9 samples.

Results

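The Rpd3 large complex (Rpd3L) of Saccharomyces cerevisiae is described here through 10 deletion strains, those lacking RPD3, SIN3, UME1, SAP30, SDS3, DEP1, PHO23, CTI6, RXT2 or RXT3. They were chosen by gene name, with values of these same arrays known, out of 5101 strains with at least 1 measured tag. The measured values that guided the choice came from all 9 arrays, so the values of these strains are a description and carry no test. In the study, pooled deletion strains were grown with and without sodium arsenite and the DNA tags of each strain were compared on 2-colour arrays. All strains descend from BY4743 (S288C), with kanMX in place of the deleted gene and the marker can1delta::LEU2-MFA1pr-HIS3 for picking MATa haploids. The background is ura3delta0, leu2delta and his3delta1. The diploids are heterozygous for lys2delta0 and met15delta0, and each haploid derived from them holds 1 allele of either gene. There was 1 array per condition and no replicate.

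Haploid strains, derived by sporulating the heterozygous pool, were grown to confluence on selective plates at 30 °C with 0, 100, 200, 400, 800 or 1600 µM arsenite, each against a culture without it. Heterozygous diploids, lacking 1 of 2 gene copies, were grown in YPD liquid medium for 10 generations with 450 or 0 µM. Haploids carrying in addition a pfd1 null allele (pfd1::TEF1pr-URA3; PFD1 encodes a prefoldin subunit) were grown with 5 µM arsenite on plates without uracil. The control culture of that array had uracil and no arsenite, and the effects of arsenite and of uracil on it cannot be told apart. By the labels both of its channels hold the pfd1 allele, but the uracil in the control medium does not select for its URA3 marker. Whether the control culture also held cells with PFD1 was not tested, and if it did, the pfd1 values would compare genotypes too.

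Rpd3 removes acetyl groups from histone tails and sits in a pair of complexes built on the scaffold Sin3. The large complex is brought to promoters by DNA-binding proteins such as Ume6 and Ash1 and represses transcription there, and it is also known for activating osmotic stress genes together with the Hog1 kinase. The small complex, Rpd3S, shares Rpd3, Sin3 and Ume1, adds Rco1 and Eaf3, and deacetylates transcribed gene bodies that the methyltransferase Set2 has marked.

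Each value below is a log2 ratio of arsenite over control culture for 1 strain, averaged over its tags and set relative to the median strain of the array. Negative values thus stand for strains depleted by arsenite relative to the pool. That direction is likely rather than settled, since no source used here states it, and with the sign turned each loss would read as a gain. The log base was taken as 2, which is not stated either, and another base would change all values by 1 common factor. Under the direction used, the strain lacking the arsenite exporter ARR3 read -5.50 at 100 µM and -6.52 at 800 µM, the strain lacking the entry channel FPS1 read 4.18 at 800 µM, and URA1, URA2, URA4 and URA5 strains read -5.23, -4.88, -3.98 and -4.32 on the array whose arsenite medium lacked uracil. The error quoted for a value (tag error) is a technical error only, taken from tag differences over all strains on that array. On the 800 µM array it was 0.208 with both tags and 0.294 with 1 tag. It is thus the same for every strain with that number of tags, and the tags of a single strain can lie further apart. Those of SDS3 read -1.96 and -4.16 at 800 µM. Between 2508 strains (haploid 1600 µM) and 4904 strains (heterozygous 450 µM) had a value. The haploid 1600 µM array stood apart: its strains had a median of -2.99 before centring, against -0.14 at 800 µM.

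Of the 10 strains, 8 were measured on every haploid array from 0 to 800 µM. DEP1 had values on 3 arrays and CTI6 on 1. Of the 10, 4 rested on 1 tag throughout (RPD3, SAP30, DEP1 and CTI6) and 6 on both tags on at least 1 array. The genes lie on 8 chromosomes.

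Loss of Rpd3L subunits left haploid strains near the pool median up to 200 µM and far below it at 800 µM. The median of the complex was 0.05 at 0 µM (8 strains), -0.19 at 100 µM (9 strains), -0.30 at 200 µM (9 strains), -1.27 at 400 µM (8 strains) and -3.25 at 800 µM (8 strains), where the median of all strains was 0 on every array. The central 99% of strains on the 0 µM array lay between -1.39 and 1.37, and this is used as the range without arsenite. Of 9 members 0 lay below it at 100 µM and 0 at 200 µM, where 0.831% and 1.53% of all strains did. Above it were 0 members at 100, 200, 400 and 800 µM, against 0.367%, 0.839%, 0.825% and 7.36% of all strains. At 400 µM 3 of 8 lay below it (5.75% of all strains), and at 800 µM 8 of 8 did (11.8% of all strains). Dividing each array by its own spread lowered the count at 800 µM to 4 of 8. The share of all strains below the range under that scaling was not computed.

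**Figure D1:**
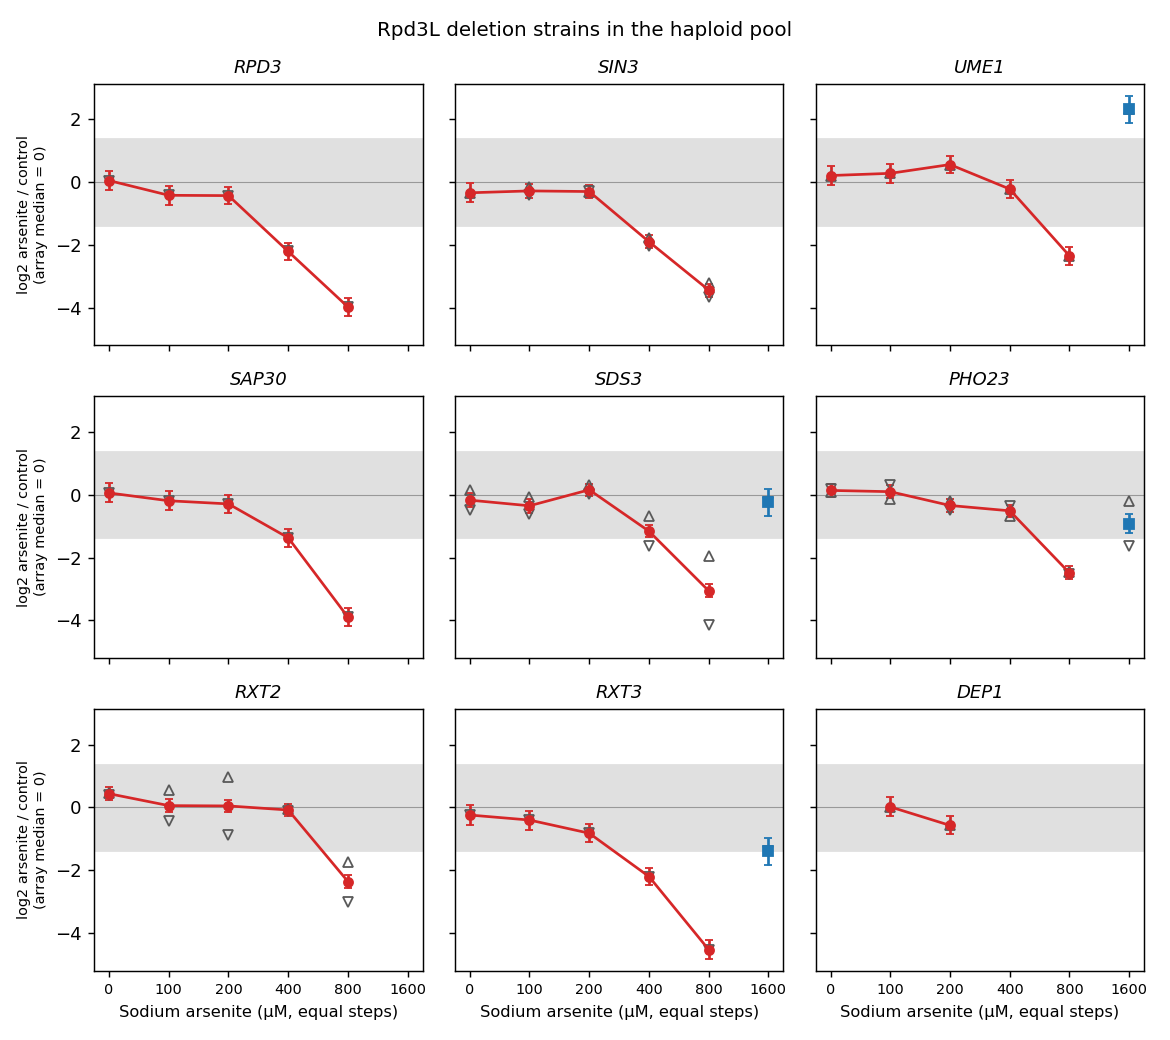
Log2 ratio of arsenite over control (vertical axis, array median at 0) against sodium arsenite in µM (horizontal axis, equal steps) for 9 haploid Rpd3L deletion strains. Red circles are strain values with the tag error, blue squares the 1600 µM array, open triangles the separate tags, and the grey band the range without arsenite. All 8 strains measured at 800 µM lie below the band there.

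The catalytic subunit and its scaffold were among the strains lost by 400 µM. RPD3, the deacetylase itself, read 0.05, -0.42, -0.43, -2.21 and -3.98 at 0, 100, 200, 400 and 800 µM. SIN3, the scaffold, read -0.34, -0.28, -0.30, -1.90 and -3.44 at the same doses. Both were inside the range up to 200 µM and below it at 400 and 800 µM, and at 800 µM RPD3 was the 49th and SIN3 the 87th lowest of 3956 strains. For SIN3 the separate tags agreed closely, with -1.77 and -2.04 at 400 µM and -3.20 and -3.67 at 800 µM. UME1, a WD-repeat subunit that Rpd3L and Rpd3S also share, read 0.21, 0.28, 0.56, -0.22 and -2.35. Of these 5 doses it was below the range at 800 µM alone, and it was the least depleted of the 8 strains there.

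The subunits found in the large complex and not in the small one covered the same span. SAP30, a small subunit that binds Sin3, read 0.06, -0.19, -0.29, -1.37 and -3.90 at 0, 100, 200, 400 and 800 µM. At 400 µM it stood just inside the range. SDS3, needed for the integrity of the complex, read -0.17, -0.35, 0.16, -1.16 and -3.06. Its tags diverged at the upper doses, to -0.69 and -1.64 at 400 µM and -1.96 and -4.16 at 800 µM. At 800 µM both lay below the range. DEP1, another structural subunit, had only the values 0.02 at 100 µM and -0.57 at 200 µM, both inside the range, and was not measured where the other strains were lost.

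PHO23, whose PHD finger binds histone H3 methylated on lysine 4, read 0.14, 0.10, -0.34, -0.51 and -2.49 at 0, 100, 200, 400 and 800 µM. It was among the later strains to fall out of the range, and its tags gave -2.46 and -2.53 at 800 µM. RXT2 read 0.44, 0.06, 0.05, -0.08 and -2.36, inside the range up to 400 µM. Its 0.05 at 200 µM averages tags at 0.98 and -0.88. RXT3 read -0.24, -0.40, -0.82, -2.20 and -4.53, the lowest of the 8 at 200 and 800 µM and the 29th lowest of all strains at 800 µM. RXT2 and RXT3, both known as subunits of Rpd3L alone, thus stood near opposite ends of the complex. CTI6, which also carries a PHD finger, had no haploid value.

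The order at 800 µM ran RXT3, RPD3, SAP30, SIN3, SDS3, PHO23, RXT2 and UME1 from low to high. RPD3 and SAP30 differed by less than their tag errors, as did PHO23, RXT2 and UME1, so the order within these neighbours is not resolved. Between 0 and 800 µM the change ranged from -4.29 ± 0.42 for RXT3 to -2.56 ± 0.42 for UME1 (tag error).

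The step at which the loss came differed. From 200 to 400 µM RPD3 changed by -1.78 and SIN3 by -1.61, RXT3 by -1.38, SDS3 by -1.33 and SAP30 by -1.08, whereas UME1 changed by -0.78, PHO23 by -0.17 and RXT2 by -0.13. The -0.13 of RXT2 averages tags that moved in opposite directions, from 0.98 to -0.06 and from -0.88 to -0.10. Tag errors on both arrays were 0.283 with 1 tag and 0.200 with both. The steps of UME1 and SAP30, read by 1 tag each, are thus not resolved from each other. From 400 to 800 µM every measured strain lost between -1.53 (SIN3) and -2.53 (SAP30). UME1, PHO23 and RXT2 thus took most of their loss in the last step. SAP30, SDS3 and RXT3 also lost more there than before it, though by a smaller share. RPD3 and SIN3 divided their loss about evenly over the last steps.

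At 1600 µM only 4 of the strains had a value: RXT3 at -1.40, PHO23 at -0.92, SDS3 at -0.23 and UME1 at 2.33. Below the range was RXT3 alone (3.99% of all strains), and above it UME1 alone (14.5% of all strains). These values are relative to the strongly shifted median of that array. UME1 and RXT3 rest on 1 tag there, and the tags of PHO23 read -0.21 and -1.63.

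A straight line over the dose steps from 0 to 800 µM, fitted with limma on 3731 strains, gave negative slopes for all 8 measured members. They ranged from -1.04 ± 0.20 per step (SE) in RXT3 and -0.98 ± 0.17 in RPD3 to -0.57 ± 0.18 in RXT2 and -0.56 ± 0.21 in UME1. The median slope was -0.72, against 0.01 over all strains. After Benjamini-Hochberg adjustment over all strains limma called 0 of the 8 lower (8 of 8 had an unadjusted p under 0.05, as did 15.9% of all strains in that direction), against 2.89% of all strains. The members were chosen with these arrays in view, so neither count is read as evidence. With each array divided by its spread limma called 4 of the 8 lower (136 of all 3731 strains). With quantile normalization it called 3 (43 of all 3731 strains). Over all strains the 108 lower calls dropped to 7 without the 100 µM array and 14 without the 400 µM array.

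**Figure D2:**
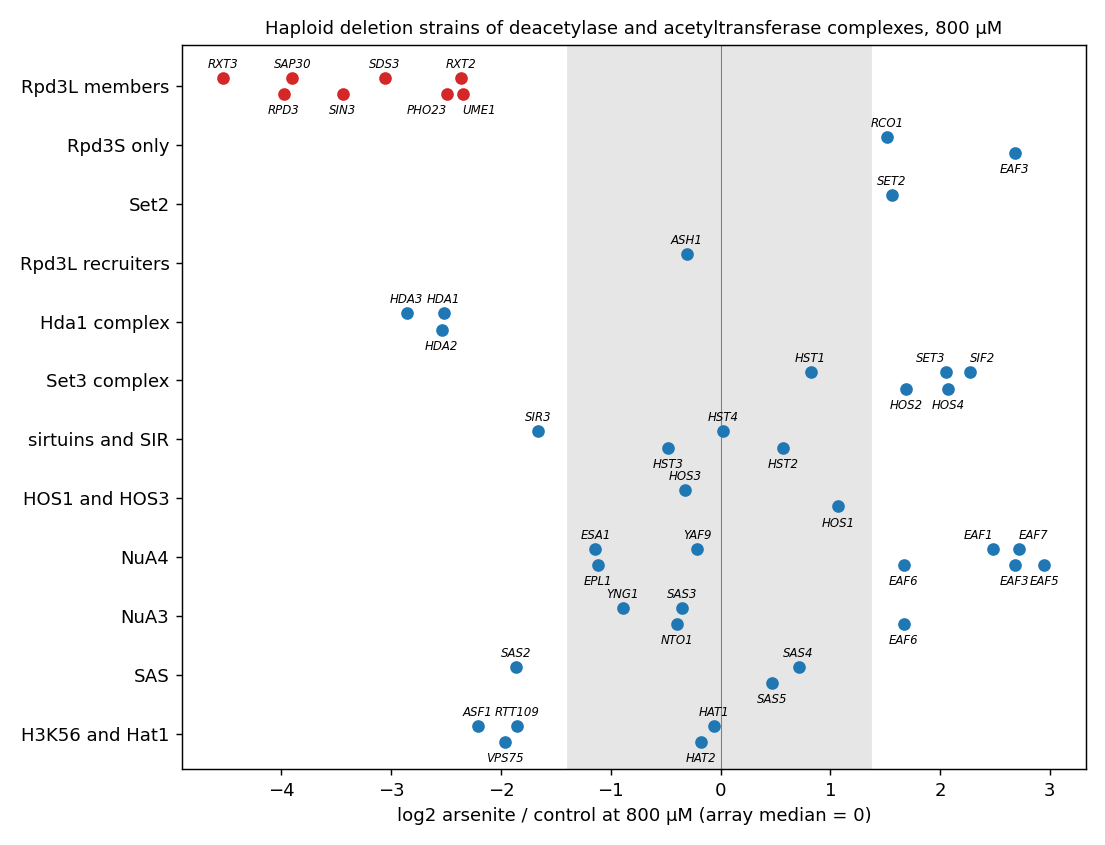
Haploid strains at 800 µM, log2 ratio of arsenite over control (horizontal axis, array median at 0), 1 point per deletion strain, grouped by complex. The grey band is the range without arsenite (-1.39 to 1.37). Rpd3L strains (red, top row) lie between -4.53 and -2.35, Hda1 complex strains between -2.86 and -2.52, and the Rpd3S-only strains RCO1 and EAF3 at 1.52 and 2.68.

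Other deacetylase and acetyltransferase complexes were set beside Rpd3L through lists that were also chosen with earlier results known. Strains lacking the subunits found in Rpd3S alone stood on the other side of the pool at 800 µM. RCO1, a PHD finger protein, read 0.11, -0.51, 0.16, 0.57 and 1.52 at 0, 100, 200, 400 and 800 µM. EAF3, whose chromodomain reads the Set2 mark, read 0.25, 0.34, 0.36, 0.44 and 2.68. SET2 itself read 0.09, 0.05, 0.12, -0.10 and 1.56. All of them were inside the range up to 400 µM and above it at 800 µM, where 7.36% of all strains were. RCO1, read by 1 tag, and SET2 passed the upper limit of 1.37 by less than their tag errors. The 3 strains did not overlap the Rpd3L members, but neither did most strains of the pool. UME1, the highest member, stood at percentile 5.28 of 3956 strains. None passed limma's threshold for a slope (adjusted p = 0.114 for RCO1, 0.161 for EAF3 and 0.276 for SET2). The difference between the lists was not tested. EAF3 is also a subunit of the acetyltransferase NuA4.

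The Hda1 complex, a separate histone deacetylase, showed losses of the same sign. Its median at 800 µM was -2.54, against -3.25 for Rpd3L, a difference that was not tested. HDA2, a regulatory subunit, read -0.09, -0.45, -0.63, -1.42 and -2.54 from 0 to 800 µM and fell by limma (slope -0.59 ± 0.09 SE, adjusted p = 0.0432). That call was lost under 9 of 13 alternatives: without any 1 of the 5 arrays, with the 1600 µM array, quantile normalization, tag set 1 alone or a trended and robust prior. The limma adjusted p for HDA2 ranged from 0.0244 to 0.175 over the 13. HDA3, the other regulatory subunit, read 0.15, -0.14, -0.17, -1.50 and -2.86 and just missed the threshold (slope -0.74 ± 0.14, limma adjusted p = 0.0555). The catalytic HDA1, not measured at 0 µM, had -0.08, -0.13, -1.02 and -2.52 at 100, 200, 400 and 800 µM. The 3 strains lay within the span of the Rpd3L members at 800 µM, towards its less depleted end.

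The Set3 complex, in which the deacetylase HOS2 works with the PHD finger protein SET3, stood on the high side. At 800 µM SIF2 read 2.27, HOS4 2.07, SET3 2.05 and HOS2 1.69, all above the range (7.36% of all strains), and HST1 0.82, inside it. Over the 5 strains limma called 0 higher and 0 lower, against 0.214% and 2.89% of all strains (adjusted p from 0.0994 for SIF2 to 0.777 for HST1). SNT1 and CPR1 are not analysed at this dose. Rpd3L and Set3 members did not overlap at 800 µM, a difference that was not tested. Most strains of the pool likewise lay above every Rpd3L member, the highest of which (UME1) stood at percentile 5.28.

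Of the proteins that bring Rpd3L to DNA, ASH1 read -0.31 at 800 µM (slope 0.04 ± 0.06, limma adjusted p = 0.659) and UME6 had 1 haploid value, 0.86 at 200 µM. Neither lay outside the range. Sirtuin and SIR strains had a median of -0.23 at 800 µM, from SIR3 at -1.66 to HST2 at 0.57. The deacetylase strain HOS1 read 1.07 and HOS3 -0.32.

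Among acetyltransferases, NuA4 had 5 of 8 strains above the range at 800 µM (7.36% of all strains; median 2.08), from EAF5 at 2.95 down to ESA1 at -1.14. ESA1 and EPL1 are essential genes, and what their tags read in a haploid pool is uncertain. NuA3 had a median of -0.37, with YNG1 at -0.89 and EAF6, shared with NuA4, at 1.67. In the SAS complex SAS2 read -1.86 and SAS4 0.71. The list of histone H3 lysine 56 and Hat1 acetyltransferases had a median of -1.85, from the histone chaperone ASF1 at -2.21 to HAT1 at -0.06. Of its 5 strains 3 lay below the range at 800 µM, against 11.8% of all strains. Over the 31 related strains fitted, limma called 1 lower (HDA2) and 0 higher, against 6 and 10 at an unadjusted p under 0.05, a level that 594 (lower) and 448 (higher) of all 3731 strains passed. Over all strains 2.89% were called lower and 0.214% higher, so the 1 lower call is near the share over all strains.

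Strains lacking the genes next to the Rpd3L genes were read as well, since a deletion can disturb its neighbour. Of 20 adjacent genes, 13 had a value at 800 µM, from CYS3 at -2.34 to KTR7 at 2.03, with a median of 0.36. Below the range were 2 of the 13: CYS3, next to DEP1, and PEX6 (-1.64), next to RPD3. That count is near the share over all strains, 11.8%. The neighbours measured for SIN3, UME1, SAP30, SDS3 and RXT2 lay inside or above it.

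By the root mean square difference over the 5 haploid arrays from 0 to 800 µM, the strains most like the median Rpd3L profile among 3723 others were OCA1 (0.103), CTF4 (0.123), STE20 (0.179), SIW14 (0.188) and GPB2 (0.202). The members themselves lay between 0.252 (SDS3) and 0.764 (UME1) from their own median. OCA1 read -0.01, -0.13, -0.40, -1.32 and -3.40 from 0 to 800 µM. Ranked by Pearson correlation over the same 5 arrays, the nearest 5 strains shared 0 with this list.

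In the heterozygous diploid pool, which asks whether losing 1 copy matters, the complex divided. RXT2 read -2.85 at 450 µM and 0.20 at 0 µM, a difference of -3.04 ± 0.32 (tag error), the 3rd lowest of 4684 strains. PHO23 read -0.90 at 450 µM and 0.33 at 0 µM, a difference of -1.23 ± 0.32, the 63rd lowest. RXT3 read -0.65 at 450 µM and 0.09 at 0 µM, a difference of -0.74 ± 0.45. RXT3 passed neither threshold used below. All of these are subunits of the large complex alone, as are SAP30 and SDS3, which stayed near 0.

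The other heterozygous strains stayed near the median. The differences were -0.24 ± 0.32 for SIN3, -0.14 ± 0.45 for SAP30, -0.06 ± 0.45 for RPD3, -0.06 ± 0.32 for SDS3 and 0.12 ± 0.39 for UME1, all within 1 tag error of 0. The median over 8 strains was -0.19. A difference of -1 or lower was reached by 2 of the 8, against 1.96% of all strains, and a difference of 1 or higher by 0 of 8, against 1.13%. RXT2 and PHO23 were also the members below the central 99% of the heterozygous 0 µM array (-0.87 to 1.13), which 2.41% of all strains were, and 0 of 8 lay above it (0.918% of all strains). PHO23 passed both limits by less than its tag error, and its tag set 1 reading at 450 µM, -0.65, lay inside the range.

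The size of the RXT2 loss differed between its tags. At 450 µM its tags read -1.66 and -4.04, the widest gap among the 35 pairs of tag readings for Rpd3L strains, while at 0 µM they read 0.52 and -0.13. Each tag alone still gave a loss, of -2.17 and -3.90, and for PHO23 of -0.85 and -1.59. The neighbours of RXT2 read -0.26 (PBY1) and 0.28 (YBR096W) as heterozygotes, and 0 of 16 measured neighbours of Rpd3L genes reached -1, against 1.96% of all strains. The neighbours of PHO23 and RXT3 had no heterozygous value. RXT2 was thus lower as a heterozygote at 450 µM than as a haploid deletion at 400 µM (-0.08), although medium, growth format and dose differ between these pools and the difference was not tested.

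**Figure D3:**
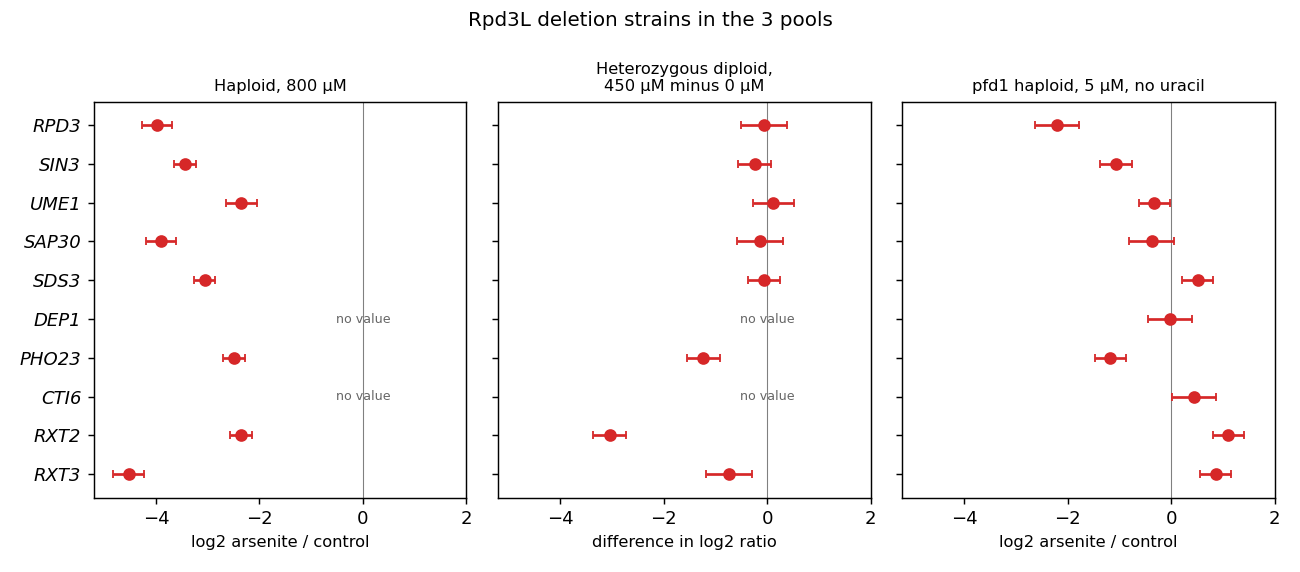
Rpd3L deletion strains in the haploid pool at 800 µM (left), in heterozygous diploids as 450 minus 0 µM (middle) and in pfd1 haploids at 5 µM without uracil (right). Horizontal axes are log2 ratios of arsenite over control, or their difference, and bars are tag errors. RPD3 is low in haploids (-3.98) and pfd1 haploids (-2.21) and near 0 as a heterozygote (-0.06). RXT2 is the lowest of the heterozygotes shown (-3.04), low in haploids (-2.36) and high in pfd1 haploids (1.10). The left and middle panels show unlike measures. The haploid change of RXT2 from 0 to 800 µM, -2.80 ± 0.30, was within tag error of its heterozygous difference.

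In pfd1 haploids all 10 strains had a value, and they spread to both sides. RPD3 read -2.21 ± 0.43 (tag error), the 63rd lowest of 4612 strains, PHO23 read -1.18 ± 0.30 and SIN3 -1.07 ± 0.30. On the other side RXT2 read 1.10 ± 0.30, RXT3 0.86 ± 0.30, SDS3 0.51 ± 0.30 and CTI6 0.44 ± 0.43. SAP30 read -0.38 ± 0.43, UME1 -0.33 ± 0.30 and DEP1 -0.03 ± 0.43. At or below -1 were 3 of the 10, against 7.7% of all strains, and at or above 1 was 1 of the 10, against 8.63%.

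The low strains were RPD3 and SIN3, whose proteins Rpd3S also holds, and PHO23. SIN3 and PHO23 passed -1 by less than their tag errors. UME1, the other shared subunit, read -0.33, close to SAP30 of Rpd3L alone at -0.38. RPD3, SIN3 and UME1, which both complexes hold, had a median of -1.07, and the Rpd3S-only strains RCO1 and EAF3 read -1.85 and -1.09. EAF3 also passed -1 by less than its tag error. The 7 strains of subunits found in Rpd3L alone had a median of 0.44, with PHO23 as the 1 strain among them at or below -1. SET2 read -0.08. RCO1 and EAF3 thus stood below the median here and above it in the plain haploid pool at 800 µM (1.52 and 2.68), while RPD3 and SIN3 stood below it in both. The Hda1 strains, low at 800 µM, read 0.64 (HDA1), 0.67 (HDA2) and 0.54 (HDA3). These contrasts rest on 1 array per pool, and none of them was tested.

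**Figure D4:**
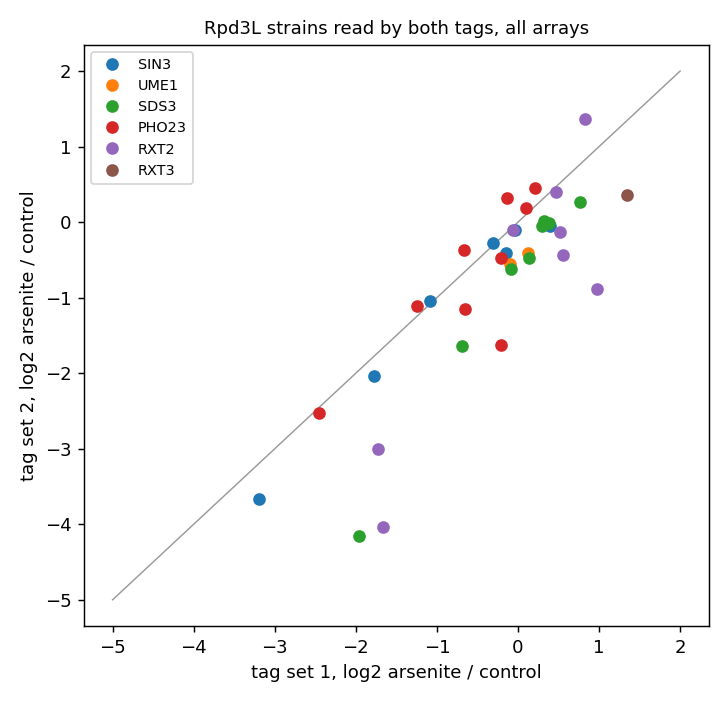
Log2 ratios of arsenite over control from tag set 1 (horizontal axis) and tag set 2 (vertical axis) for the 6 Rpd3L strains read by both tags, 1 point per strain and array. The grey line marks equality. The 35 pairs differ by a median of 0.45, and 5 differ by more than 1: RXT2 on 3 arrays, SDS3 and PHO23 on 1 array each.

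The separate tags bear on how far single values can be trusted. Over all strains the correlation between tag sets was 0.145 on the haploid 0 µM array and 0.881 at 800 µM. Values near 0 on the low-dose arrays therefore do not rank the strains. At 800 µM the 4 members read by both tags (SIN3, SDS3, PHO23 and RXT2) lay below the range with each tag. RXT2 had the widest gap, at 450 µM in heterozygotes, and its tags also parted in haploids at 200 µM (0.98 and -0.88) and 800 µM (-1.73 and -3.00).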

How the data were processed

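The values are the series matrix table, in which each tag probe has a log ratio of the 2 channels per array. Per the labels' protocols, both tags of each strain were copied by asymmetric PCR with labelled primers, control in Cy5 and arsenite in Cy3 on every array, so a dye bias stays in single-array values. The deposited values were taken as log2. For their base, normalization, direction and filters, the method is not given in the sources used here. The sign was turned to arsenite over control. Deposited medians lay between -0.09 and 0.12, except 2.99 on the haploid 1600 µM array. GEO's platform annotation named 1 gene for 8765 of 9727 probes with a value. Tags were averaged per strain and centred on each array's median strain; tag sets 1 and 2 were split by table position. Slopes over 0 to 800 µM came from limma 3.58.1 under R 4.3.3 (functions lmFit and eBayes, two-sided, Benjamini-Hochberg over all strains, threshold 0.05). The fit was tested on simulated straight responses, which do not cover a late fall such as that of the members. With 9 arrays and no replicates, the number of arrays limits the precision. The limma p-value tests the slope against 0, with the scatter around a straight line as its error. Members, lists and thresholds were chosen with earlier results of these data known. Named strains are the 10 members, members of the related lists called by limma or else lowest and highest at 800 µM, the strains most alike, neighbours and direction checks; further list members (RCO1, EAF3, SET2, the Set3 and Hda1 strains) were named after their values were seen.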

Additional observations from a re-analysis of the deposited data

Results flagged for a closer look

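RXT2 lay on opposite sides of the median strain in plain haploids at 800 µM and in pfd1 haploids. Its value was 1.10 on the pfd1 array at 5 µM, with tags at 0.83 and 1.37, whereas its change from 0 to 800 µM in plain haploids was -2.80. Both passed 1 on the log2 scale, with 1 array per condition, and the difference was not tested. Dose and uracil supply differ between these arrays too. The pfd1 value is a single reading with no pfd1 array at 0 µM beside it. It stood at percentile 92.5 and inside the range of the haploid 0 µM array, and 8.63% of all strains were at or above 1.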

How the results depend on the processing

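No paired analysis was possible because each condition has 1 array and the labels give no replicate numbers. With the 1600 µM array limma called 0 of 2507 strains lower and 0 higher (256 and 418 at an unadjusted p under 0.05), and with a trended and robust prior 0 and 0 (626 and 492), against 108 and 8 in the fit reported. Quantile normalization gave 43 lower and 32 higher, scaling by the median absolute deviation 136 and 43, and a log2 dose axis 79 and 5. Strains with at least 2 tags gave 45 and 3, and tag set 2 alone 66 and 3 of 2654 strains. Without the 0 µM array the counts were 108 and 8 of 3860 strains. Leaving out the 100 µM array gave 7 lower and 0 higher, the 200 µM array 55 and 1, the 400 µM array 14 and 1, and the 800 µM array 31 and 1. Rpd3L members called lower, 0 of 8 in the fit reported, numbered 3 with quantile normalization, 4 with scaling, 2 with tag set 2, 1 without the 0 µM array and 1 without the 200 µM array. Member slopes kept their negative sign under all alternatives run except UME1, which reversed to 0.06 with the 1600 µM array. Of the related strains 0 were called lower with the 1600 µM array and 2 with scaling. Pearson correlation shared 0 of the 5 most alike strains.

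Members below the range numbered 5 of 8 at 400 µM at a threshold of 1 or with a central 95% range, 1 of 5 with tag set 1 and 5 of 7 with tag set 2. At 800 µM they were 4 of 8 with scaling, 5 of 5 with tag set 1, and, in an alternative chosen after seeing the data, 4 of 4 without strains read by a single tag. At 200 µM 1 of 9 fell below the central 95% range. At 1600 µM the count below was 2 with the 95% range, 3 without centring, 0 with scaling, 0 with tag set 1 and 2 with tag set 2, and the count above was 0 without centring, with scaling, with tag set 2 and without single-tag strains. Heterozygous members at or below -1 were 1 at a threshold of 2, with tag set 1 and on the 450 µM array alone. On the pfd1 array 1 member was low and 0 high both at a threshold of 2 and against the haploid range. The shares of all strains under these alternatives were not computed, and the cause of these shifts was not tested.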

Other observations

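The acetyltransferase strain SAS2 had a profile unlike any Rpd3L member. It read 0.20 at 0 µM and -2.58, -2.38, -2.23 and -1.86 at 100, 200, 400 and 800 µM, so it was low from the first dose on. It also read -3.54 on the pfd1 array, the 18th lowest of 4612 strains, and its heterozygous difference was -2.11, the 13th lowest of 4684. The strains of its partners SAS4 and SAS5 read 0.71 and 0.47 at 800 µM. SAS2, and the strains named next, were chosen for mention after their values were seen.

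On the haploid 1600 µM array the NuA4 strains EAF1 and EAF5 read 7.63 and 7.08, the 2496th and 2493rd of 2508 strains from the lowest. SIF2 and SET3 of the Set3 complex read 5.82 and 5.32, RCO1 of Rpd3S 4.14 and SET2 3.36, whereas RXT3 of Rpd3L read -1.40. On the pfd1 array the NuA4 strain YAF9 read -3.55, the 17th lowest of 4612.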
